A study of Mus musculus with 15 samples.

Results

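The transcripts described here are 10 genes that are widely used to recognise fibroblasts: Pdgfra, Pdgfrb, Dpt, Thy1, Fap, S100a4, Vim, Pi16, Cd34 and Tcf21. They were taken by name from the 19938 genes that an Affymetrix Mouse Gene array measured in subcultured mammary epithelial cells, isolated from female mice aged 8 weeks. All 10 had a probe set, each exactly 1, and none was removed by a filter on low values. The study asked what the loss of Rb adds in mammary cells that overexpress MYC. RNA came from proliferating cultures and was amplified before hybridisation, with 1 array per sample and 15 arrays in all.

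The arrays fell into 5 groups of 3. WT cells were wild type for p53, Rb and Myc. In p53- cells the p53 gene had been deleted by Cre recombinase delivered with an adenovirus, and in p53- Rb- cells the Rb gene had been deleted as well. The p53- Myc+ cells had lost p53 and carried a MYC retrovirus, and the p53- Rb- Myc+ cells had all 3 changes. All 4 altered groups thus shared the loss of p53, and in the comparisons that begin from p53- or p53- Rb- cells the controls carried it too. The labels do not say whether control cultures received a control virus, which cells the virus entered, or whether the replicates of a group were separate cultures or animals. The p-values therefore reflect only how far these samples differ, which may be technical in part.

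Fibroblasts are the connective tissue cells that build and remodel the extracellular matrix, and in the mammary gland they surround the ducts and lie within the fat pad. Pdgfra and Pdgfrb encode the receptor tyrosine kinases for platelet-derived growth factors, which drive growth and migration of mesenchymal cells. Epithelial cells that pass through an epithelial-mesenchymal transition, or that adapt to culture, can also express some of these genes, vimentin above all. In bulk RNA, fewer cells of a type and less RNA per cell cannot be told apart.

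Probe set intensity is the deposited linear value, and its median over all probe sets of an array lay between 41.3 and 54.9. Changes are log2 fold changes ± SE of log2(intensity + 16), which understates the change of low genes. They come from 1 limma fit over the 15 arrays, and rose and fell are kept for changes that passed at 0.05 after Benjamini-Hochberg adjustment over the 19938 genes. The targeted genes were read first. The mean of Rb1 was 92.8 ± 9.57 (SD, n = 3) over the WT arrays and 161 ± 17.3 over the p53- arrays. It rose by 0.71 ± 0.16 between them (adjusted p = 0.00286). Over the p53- Rb- arrays it was 57.4 ± 6.07, and it fell by 1.27 ± 0.16 against p53- (adjusted p = 1.64e-05). In the arrays labelled p53- Myc+, which carry no Rb- label, it stood lower still (36.4 ± 10.8) and fell by 1.77 ± 0.16 against p53- (adjusted p = 8.86e-09), so the Rb1 level does not order the groups as the Rb- label does. It fell further in p53- Rb- Myc+ arrays (18.7 ± 1.09). The Myc probe set stood at 888 ± 47.9 in WT arrays, but at 128 ± 29.5 in the arrays labelled p53- Myc+, where it fell by 2.73 ± 0.17 against p53- (adjusted p = 9.48e-12). It thus goes against the Myc+ label, and whether it could detect the retroviral transcript is not given in the sources used here. Directions below that involve Myc+ or Rb- rest on the labels. The p53 transcript was not analysed here.

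The cell type label was checked against 17 epithelial markers. Their summed intensity ran from 24726 to 29139 in the arrays of WT, p53- and p53- Rb- cells, from 239 to 316 in the arrays labelled p53- Myc+, and from 740.3 to 820.0 in those labelled p53- Rb- Myc+. All 17 fell in both comparisons of Myc+ with its control, where 20.2% (against p53-) and 18.7% (against p53- Rb-) of all genes fell. Epcam, which encodes a surface protein of epithelial cells, had a mean of 1634 in p53- arrays and 10.3 in p53- Myc+ arrays, and 9 of the 17 were under 16 on all 3 p53- Myc+ arrays. On all 3 p53- Rb- Myc+ arrays 7 of the 17 were under 16. The arrays with the Myc+ label therefore had far lower levels of the markers that define the labelled cell type. The part of this difference in the changes below was not tested.

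For 7 of the 10 genes RefSeq's table of the mouse assembly GRCm38.p6 gave the 250 bases before the annotated start. The 5 printed here belong to the genes that rose most in p53- Myc+ against p53- (Pdgfra and Dpt), to both genes with a match to the sequence TATAAA (S100a4 and Vim), and to Cd34, which had a pattern of its own. They lie at chr5:75152001-75152250 (Pdgfra), chr1:164796413-164796662 (Dpt), chr3:90603520-90603769 (S100a4), chr2:13574061-13574310 (Vim) and chr1:194938571-194938820 (Cd34), all on the plus strand, and are written 5′ to 3′ with the match in capitals.
Pdgfra: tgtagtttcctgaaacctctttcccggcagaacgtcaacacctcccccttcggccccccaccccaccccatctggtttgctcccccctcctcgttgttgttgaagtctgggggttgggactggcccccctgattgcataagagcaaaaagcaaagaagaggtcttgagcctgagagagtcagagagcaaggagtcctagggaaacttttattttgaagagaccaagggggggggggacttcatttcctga
Dpt: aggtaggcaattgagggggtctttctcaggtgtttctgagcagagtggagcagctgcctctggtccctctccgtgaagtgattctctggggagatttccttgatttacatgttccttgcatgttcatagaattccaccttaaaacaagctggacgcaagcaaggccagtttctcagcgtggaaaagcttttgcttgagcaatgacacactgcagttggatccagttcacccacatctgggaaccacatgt
S100a4: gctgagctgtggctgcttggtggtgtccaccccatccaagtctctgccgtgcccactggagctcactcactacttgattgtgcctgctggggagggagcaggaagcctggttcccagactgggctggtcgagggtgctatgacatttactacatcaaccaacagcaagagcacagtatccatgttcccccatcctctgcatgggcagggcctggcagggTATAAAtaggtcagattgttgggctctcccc
Vim: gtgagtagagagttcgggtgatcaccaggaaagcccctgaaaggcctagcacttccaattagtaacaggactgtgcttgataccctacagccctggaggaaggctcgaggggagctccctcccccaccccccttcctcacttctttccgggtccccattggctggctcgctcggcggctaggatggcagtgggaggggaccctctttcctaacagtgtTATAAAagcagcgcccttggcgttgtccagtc
Cd34: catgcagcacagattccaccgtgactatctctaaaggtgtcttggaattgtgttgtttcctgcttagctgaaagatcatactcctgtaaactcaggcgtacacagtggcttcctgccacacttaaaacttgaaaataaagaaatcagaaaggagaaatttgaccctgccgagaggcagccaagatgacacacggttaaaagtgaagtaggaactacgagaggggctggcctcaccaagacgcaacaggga
The match in S100a4 spans bases 220 to 225 of the window and begins 31 bases before the start. In Vim it spans bases 219 to 224 and begins 32 bases before it. TATAAA, read on both strands and added to the search after the sequences were seen, occurs in 12.4% of 32851 such windows. CACGTG (an E-box bound by MYC and MAX, 6.02% of windows), TTTCCCGC and TTTGGCGC (bound by E2F factors, 0.895% and 0.417%) and TGANTCA (bound by AP-1, 6.75%) had no match in any of the 7 windows. Their GC content was 54.4% for Pdgfra, 48.8% for Dpt, 57.2% for S100a4, 58.4% for Vim and 46.4% for Cd34, against a median of 52.4% over all windows.

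**Figure D1:**
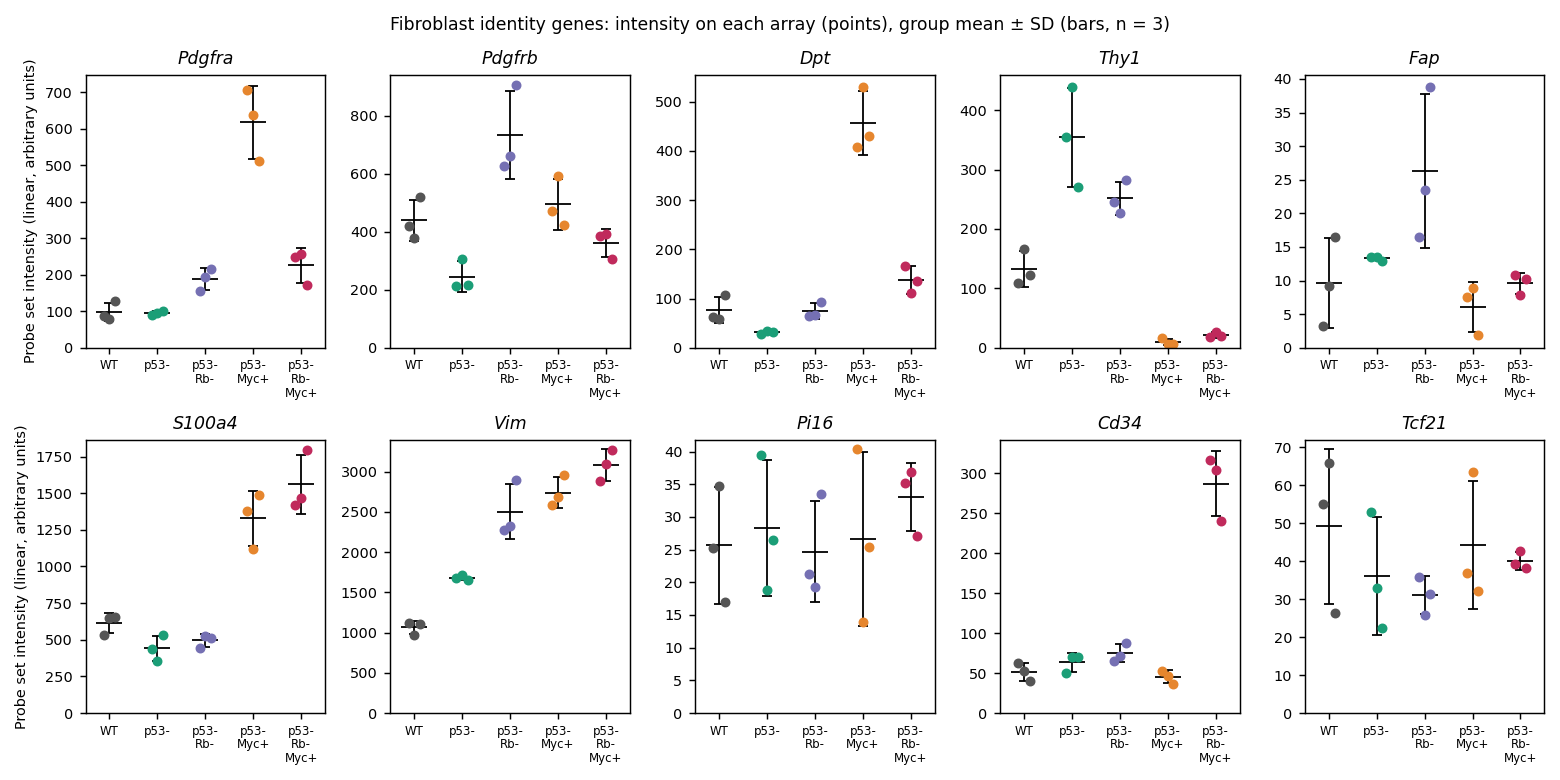
Probe set intensity (linear, arbitrary units, vertical axes from 0) of the 10 genes on each of the 15 arrays by group; points are arrays and bars are the group mean ± SD (n = 3). Pdgfra and Dpt stand highest in the arrays labelled p53- Myc+, Cd34 in those labelled p53- Rb- Myc+ and Pdgfrb in p53- Rb- arrays, while Thy1 is at 26.6 or lower on all 6 arrays with the Myc+ label.

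The platelet-derived growth factor receptors came first. Pdgfra, which marks fibroblasts and mesenchymal progenitors in many tissues, had intensities of 86.6, 79.5 and 127 on WT replicates 1 to 3 and of 90.3, 94.9 and 102 on p53- arrays. It reached 154, 195 and 215 on p53- Rb- arrays. On the arrays labelled p53- Myc+ it read 705, 636 and 510.2, and on p53- Rb- Myc+ arrays 248, 258 and 172. The WT and p53- arrays were the lowest and overlapped, p53- Rb- and p53- Rb- Myc+ arrays overlapped above them, and all 3 p53- Myc+ arrays lay above every other array. Pdgfra rose by 0.86 ± 0.19 in p53- Rb- against p53- (1.81-fold, adjusted p = 0.00309) and by 2.49 ± 0.19 in p53- Myc+ against p53- (5.63-fold, adjusted p = 4.29e-10). It fell by 1.40 ± 0.19 in p53- Rb- Myc+ against p53- Myc+ (adjusted p = 3.1e-05). The change was -0.0049 ± 0.19 in p53- against WT, with a 95% interval from -0.40 to 0.39, and 0.24 ± 0.19 in p53- Rb- Myc+ against p53- Rb-, with an interval from -0.16 to 0.63.

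Pdgfrb, the receptor found on fibroblasts and on pericytes of small vessels, ran in another order. It read 420.1, 379 and 518 on WT arrays, 212, 306 and 218 on p53- arrays and 627, 662 and 906 on p53- Rb- arrays. With the Myc+ label it read 470.0, 591 and 422 without and 384, 391 and 307 with the Rb- label. The p53- arrays were the lowest and the p53- Rb- arrays the highest, each apart from all others, and the 3 groups between them overlapped from neighbour to neighbour (p53- Rb- Myc+, WT, p53- Myc+). Pdgfrb fell by 0.81 ± 0.19 in p53- against WT (adjusted p = 0.00335) and rose by 1.52 ± 0.19 in p53- Rb- against p53- (2.86-fold, adjusted p = 1.34e-05). It rose by 0.97 ± 0.19 in p53- Myc+ against p53- (adjusted p = 0.000327) and fell by 0.98 ± 0.19 in p53- Rb- Myc+ against p53- Rb- (adjusted p = 0.000298). In p53- Rb- Myc+ against p53- Myc+ the change of -0.43 ± 0.19 (95% interval -0.83 to -0.03, before adjustment) did not pass (adjusted p = 0.277).

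Dpt encodes dermatopontin, a small protein of the extracellular matrix that binds collagen fibrils and is expressed by fibroblasts of most organs. It read 63.3, 58.6 and 106 on WT arrays, 28.5, 33.3 and 31.2 on p53- arrays and 65.4, 65.5 and 92.6 on p53- Rb- arrays. The arrays labelled p53- Myc+ gave 409, 530.1 and 430.1, and those labelled p53- Rb- Myc+ gave 167, 111 and 136. Only WT and p53- Rb- arrays overlapped among neighbours in the order of group means, with p53- lowest and p53- Myc+ highest. Dpt fell by 0.94 ± 0.20 in p53- against WT (adjusted p = 0.00123) and rose by 0.93 ± 0.20 in p53- Rb- against p53- (adjusted p = 0.00183). Its rise in p53- Myc+ against p53- was 3.32 ± 0.20 (10.0-fold, adjusted p = 4.11e-12). It then fell by 1.63 ± 0.20 in p53- Rb- Myc+ against p53- Myc+ (adjusted p = 4.84e-06), and rose by 0.76 ± 0.20 in p53- Rb- Myc+ against p53- Rb- (adjusted p = 0.00367).

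Among the genes of surface proteins, Thy1 rose in p53- against WT, where Dpt fell, and fell in both comparisons with the Myc+ label, where Dpt rose. It encodes CD90, a glycoprotein held in the membrane by a lipid anchor, which is common on fibroblasts and is also found on neurons, T cells and some mammary basal cells. Its intensities were 109, 166 and 122 on WT arrays, 354, 438 and 271 on p53- arrays and 245, 227 and 282 on p53- Rb- arrays. On the arrays labelled Myc+ they were 15.6, 7.04 and 5.74 with p53- alone and 18.6, 26.6 and 19.2 with p53- Rb-. Arrays of p53- and p53- Rb- cells overlapped at the top, and every array with the Myc+ label lay below every array without it. Thy1 rose by 1.31 ± 0.20 in p53- against WT (2.48-fold, adjusted p = 5.07e-05) and fell by 3.86 ± 0.20 in p53- Myc+ against p53- (adjusted p = 2.94e-13). It fell by 2.84 ± 0.20 in p53- Rb- Myc+ against p53- Rb- (adjusted p = 6.62e-11). The sizes of these falls depend on the constant added, since the low values are near or under it, and with 64 added they were -2.49 and -1.88. Neither change with the Rb- label passed: it was -0.45 ± 0.20 in p53- Rb- against p53- (adjusted p = 0.11) and 0.57 ± 0.20 where the Myc+ label was present (adjusted p = 0.115).

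Cd34 encodes a sialomucin carried by stromal fibroblasts and adipose progenitors, and also by endothelial and haematopoietic progenitor cells. It read 62.4, 52.0 and 40.4 on WT, 49.5, 70.1 and 70.3 on p53-, 65.2, 71.6 and 87.0 on p53- Rb- and 52.96, 46.1 and 36.6 on p53- Myc+ arrays. The 3 arrays labelled p53- Rb- Myc+ gave 316, 304 and 241. These lay far above all other arrays, whose neighbouring groups overlapped throughout. Cd34 rose by 2.31 ± 0.18 in p53- Rb- Myc+ against p53- Myc+ (4.94-fold, adjusted p = 5.3e-09) and by 1.74 ± 0.18 against p53- Rb- (3.34-fold, adjusted p = 5.13e-08). No comparison without that group passed, and the changes there were 0.23 (p53- against WT, 95% interval -0.14 to 0.60), 0.20 (p53- Rb- against p53-, -0.17 to 0.57) and -0.37 (p53- Myc+ against p53-, -0.74 to 0.00). Of 12 endothelial markers, 0 passed in p53- Rb- Myc+ against p53- Myc+ with limma, where 4.69% of all genes passed, and 1 had an unadjusted p under 0.05. Their summed intensity was 392.2 to 468 in p53- Myc+ and 405 to 465 in p53- Rb- Myc+ arrays, and on the 3 arrays where Cd34 was high 3 of the 12 (Pecam1, Cdh5 and Emcn) were under 16 throughout, while Egfl7 (103), Cldn5 (87.9), Vwf (78.3) and Tie1 (42.1) had higher means. Of 11 leukocyte markers, 1 rose there, Cd14 by 0.97 ± 0.18 (adjusted p = 0.00116), with sums of 360.5 to 381 and 443 to 469. The part of either list in the rise of Cd34 was not tested.

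Fap encodes fibroblast activation protein, a serine protease of activated fibroblasts, and its values were low throughout. It lay under the median gene of its own array on all 15 arrays, with 38.8 on p53- Rb- replicate 3 as its highest and 1.84 on a p53- Myc+ array as its lowest value. The p53- Rb- arrays (16.4, 23.5 and 38.8) lay above the p53- arrays (13.5, 13.5 and 12.9), and the other 3 groups overlapped with each other: 3.20 to 16.5 in WT, 1.84 to 8.83 in p53- Myc+ and 7.79 to 10.8 in p53- Rb- Myc+. One change passed, a fall of 0.69 ± 0.20 in p53- Rb- Myc+ against p53- Rb- (adjusted p = 0.00979). It was lost without p53- Rb- replicate 3, where the change was -0.49 (adjusted p = 0.0834), and with 1 added in place of 16, where it was -1.29 (adjusted p = 0.0653).

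Of the genes for intracellular proteins, S100a4 rose in both comparisons with the Myc+ label and Vim in p53- Myc+ against p53-. Vim encodes vimentin, the intermediate filament of mesenchymal cells. Its intensities were 1117, 971 and 1108 on WT arrays, 1677, 1717 and 1651 on p53- arrays and 2281, 2329 and 2898 on p53- Rb- arrays. The arrays labelled p53- Myc+ gave 2579.7, 2682 and 2959, and those labelled p53- Rb- Myc+ gave 2880.3, 3093 and 3275. WT, p53- and p53- Rb- arrays were ordered without overlap, and from p53- Rb- upwards neighbouring groups overlapped. Vim rose by 0.65 ± 0.15 in p53- against WT (1.57-fold, adjusted p = 0.00272) and by 0.70 ± 0.15 in p53- Myc+ against p53- (1.62-fold, adjusted p = 0.000835). It rose by 0.56 ± 0.15 in p53- Rb- against p53- (adjusted p = 0.0115), a call that was lost without p53- Rb- replicate 3 (0.45, adjusted p = 0.0787). The change of 0.31 ± 0.15 in p53- Rb- Myc+ against p53- Rb- did not pass (adjusted p = 0.121). It passed with 64 added (0.30, adjusted p = 0.0247), with quantile normalization (0.48, adjusted p = 0.0087), with array weights (0.36, adjusted p = 0.00812) and with a trended robust prior (0.31, adjusted p = 0.0387).

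S100a4, also called fibroblast-specific protein, encodes a small calcium-binding protein that is found in fibroblasts and in many motile or inflammatory cells. It read 533, 649 and 656 on WT arrays, 440.2, 357 and 529.8 on p53- arrays and 444, 528 and 515 on p53- Rb- arrays. The arrays with the Myc+ label gave 1379, 1121 and 1486 with p53- and 1420.4, 1466 and 1793 with p53- Rb-. All 6 of them lay above all others and their groups overlapped, the WT arrays came next, and the p53- and p53- Rb- arrays overlapped below them. S100a4 rose by 1.56 ± 0.17 in p53- Myc+ against p53- (2.95-fold, adjusted p = 1.87e-07) and by 1.62 ± 0.17 in p53- Rb- Myc+ against p53- Rb- (3.07-fold, adjusted p = 1.09e-07). The fall of 0.47 ± 0.17 in p53- against WT was close to the threshold (adjusted p = 0.049). It did not pass in 13 of 25 alternatives, among them without WT replicate 2 (-0.42, adjusted p = 0.123), without WT replicate 3 (-0.42, adjusted p = 0.119), without p53- replicate 1 (-0.47, adjusted p = 0.100) and without p53- replicate 2 (-0.33, adjusted p = 0.186). Leaving out an array of another group, which changes the pooled spread and not the estimate, also ended it for p53- Rb- replicates 1 to 3, p53- Myc+ replicate 1, and p53- Rb- Myc+ replicates 1 and 2, with adjusted p between 0.0529 and 0.0585.

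Pi16, a marker of fibroblasts around vessels and in the adventitia, and Tcf21, a transcription factor of mesenchymal progenitors, passed in none of the 5 comparisons. Pi16 ranged from 13.98 to 40.4 and lay under the median gene on all 15 arrays, and its group means, from 24.7 in p53- Rb- to 33.1 in p53- Rb- Myc+, overlapped in their arrays at each step of the order. Tcf21 ranged from 22.3 to 65.8 and lay above the median gene on only 2 of 15 arrays. Its group means ran from 31.0 in p53- Rb- to 49.2 in WT, with the same overlap. The 95% intervals that reached farthest from 0 were -0.18 to 0.74 for Pi16 (p53- Rb- Myc+ against p53- Rb-) and -0.80 to 0.18 for Tcf21 (p53- against WT), so changes of that size cannot be told from none in these arrays.

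**Figure D2:**
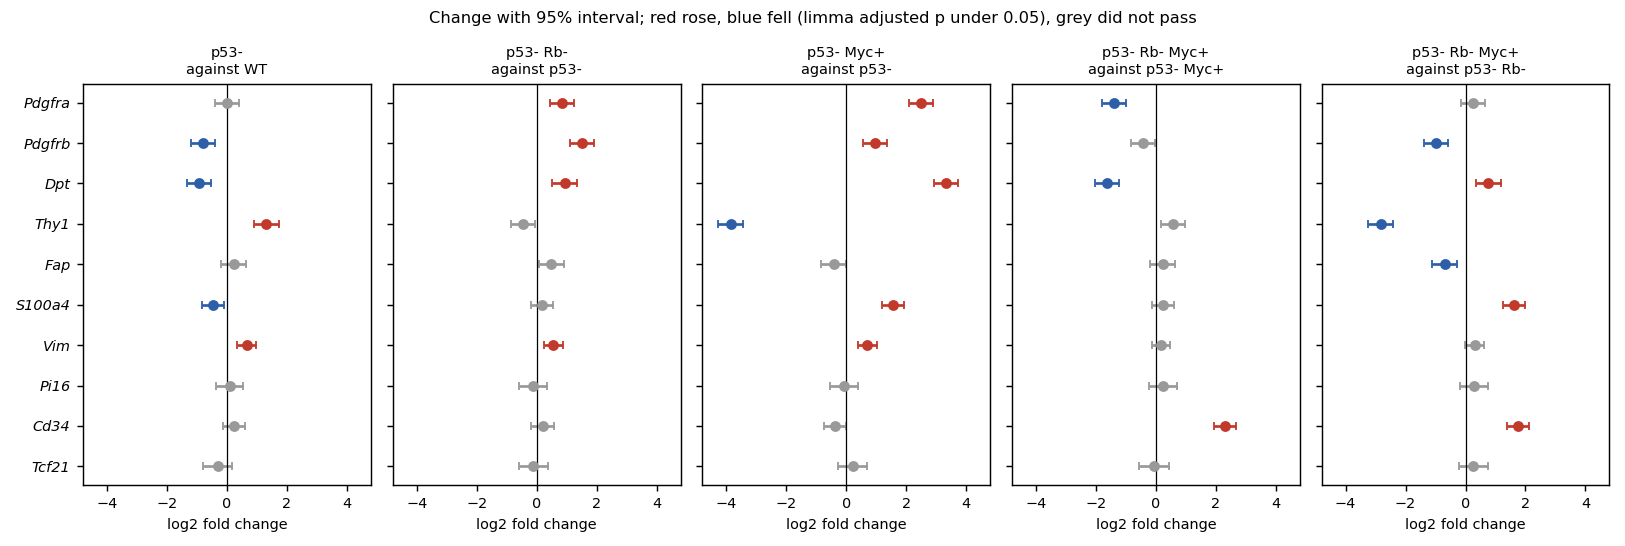
Log2 fold change of the 10 genes in the 5 comparisons, as points with 95% intervals; red marks genes that rose, blue genes that fell and grey genes that did not pass (limma, adjusted p under 0.05). Dpt and Pdgfra have the highest values in p53- Myc+ against p53- (3.32 and 2.49) and Thy1 the lowest (-3.86).

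The 5 comparisons share arrays, so their values stand side by side and are not independent. The first, p53- against WT, asks what goes with the loss of p53. Thy1 and Vim rose, and Pdgfrb, Dpt and S100a4 fell, so 2 of 10 rose and 3 fell. Over all genes 29.0% passed, 19.3% higher and 9.72% lower, and the median change was 0.04 for the 10 genes and 0.12 for all genes. The split depends on scaling: 66.5% of all calls were higher as deposited, against 52.5% with each array centred on its median and 51.6% after quantile normalization, which moved the median change of all genes to 0.02 and -0.02. The counts of the 10 genes stayed 2 and 3 under both. Of 11 leukocyte markers 1 rose and 6 fell in this comparison, and their sum was 2267 to 2653 in WT and 692 to 848 in p53- arrays. Of 17 epithelial markers 0 rose and 6 fell, though 0 passed with 1 added, 1 passed without p53- replicate 1 and 2 passed without p53- replicate 3. Of 12 endothelial markers 1 rose and 4 fell (3 calls in place of 5 without WT replicate 3 or without p53- replicate 3). Of 11 pericyte and smooth muscle markers 0 rose and 3 fell in this comparison, in which Pdgfrb fell too (5 calls without p53- replicate 2). The part of these lists in the changes of the 10 genes was not tested.

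In p53- Rb- against p53-, which asks what the loss of Rb adds, 4 of 10 rose (Pdgfra, Pdgfrb, Dpt and Vim) and 0 fell. Unadjusted p was under 0.05 for 6 of the 10. The share over all genes was 19.8%, 9.36% higher and 10.4% lower, with a median change of 0.35 for the 10 genes and -0.08 for all genes. Of the calls over all genes 47.3% were higher as deposited, 55.8% with centred arrays, 50.5% after quantile normalization and 53.2% with 64 added. Quantile normalization gave 5 that rose, with Fap added (0.69, adjusted p = 0.0328). Fap also passed without p53- Rb- replicate 1 (0.67, adjusted p = 0.0457), while it did not pass with all arrays (0.49 ± 0.20, adjusted p = 0.0904). Of 17 epithelial markers 0 passed in this limma comparison, 1 had an unadjusted p under 0.05, and 4 passed with array weights. Of 11 pericyte and smooth muscle markers 5 rose, led by Cspg4 (1.92 ± 0.25, adjusted p = 2.07e-05), a proteoglycan of pericytes. Their sum was 2818 to 3723 in p53- and 5504 to 6315 in p53- Rb- arrays, and its part in the rise of Pdgfrb was not tested. In p53- Myc+ against p53-, where Pdgfrb also rose, 1 of these 11 rose and 4 fell (13.1% and 20.2% of all genes). In p53- Rb- Myc+ against p53- Rb-, where Pdgfrb fell, 0 rose and 7 fell (17.6% and 18.7% of all genes).

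In p53- Myc+ against p53-, 5 of 10 rose (Pdgfra, Pdgfrb, Dpt, S100a4 and Vim) and 1 fell (Thy1). Over all genes 33.3% passed, 13.1% higher and 20.2% lower, and the median change was 0.46 for the 10 genes and -0.09 for all genes. Of the calls over all genes 39.2% were higher, against 59.2% with centred arrays and 56.2% after quantile normalization, with medians of 0.11 in both. The counts of the 10 genes were 5 and 1 in each of these. In p53- Rb- Myc+ against p53- Rb-, 3 of 10 rose (Dpt, S100a4 and Cd34) and 3 fell (Pdgfrb, Thy1 and Fap), where 36.3% of all genes passed, 17.6% higher and 18.7% lower. The median change was 0.27 for the 10 genes and 0.12 for all genes. Of those calls 48.5% were higher as deposited, against 57.1% with centred arrays and 55.9% after quantile normalization. With array weights 9 of the 10 passed there, with Pdgfra at 0.47 (adjusted p = 0.00758) and Pi16 at 0.41 (adjusted p = 0.0304) added along with Vim.

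Setting p53- Rb- Myc+ against p53- Myc+ asks what the loss of Rb adds in cells that carry the MYC retrovirus. Cd34 rose, and Pdgfra and Dpt fell, so 1 of 10 rose and 2 fell. Over all genes 4.69% passed, 3.29% higher and 1.40% lower, with a median change of 0.20 for the 10 genes and 0.05 for all genes. Higher calls were 70.2% of all calls as deposited, 55.8% with centred arrays and 59.4% after quantile normalization. Thy1 passed here with 1 added in place of 16 (1.20, adjusted p = 0.0396). Krt19, a keratin of luminal epithelium, rose by 2.47 ± 0.15 (adjusted p = 9.79e-11), to a mean of 489 from 75.6, as 1 of 3 among 17 epithelial markers. Epcam stayed low on these arrays, with a mean of 11.6.

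Whether the change with the Rb- label differed without and with the Myc+ label was tested as the difference of both Rb comparisons, which is the same number as the difference of both Myc comparisons. It passed for 5 of 10 genes, 2 above and 3 below 0, where 13.6% of all genes passed, 8.78% above and 4.86% below. Dpt had the difference farthest below 0, at -2.56 ± 0.28 (adjusted p = 1.67e-06), since it rose by 0.93 without the Myc+ label and fell by 1.63 with it. Pdgfra followed at -2.26 ± 0.27 (adjusted p = 6.95e-06), and Pdgfrb at -1.95 ± 0.27 (adjusted p = 4.4e-05). Above 0 were Cd34 at 2.11 ± 0.25 (adjusted p = 6.75e-06) and Thy1 at 1.02 ± 0.28 (adjusted p = 0.0167). The value for Thy1 did not pass without p53- Rb- Myc+ replicate 2 (0.93, adjusted p = 0.0545) and moved to 1.67 and 0.61 with 1 and 64 added. For Vim the difference was -0.39 ± 0.21 (95% interval -0.83 to 0.05) and for S100a4 0.06 ± 0.25 (-0.45 to 0.57). Of all calls 64.4% were above 0, against 45.1% with centred arrays and 53.7% after quantile normalization, and the median over all genes moved from 0.13 to -0.0032 and -0.01. The 10 genes kept counts of 2 and 3 in both.

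**Figure D3:**
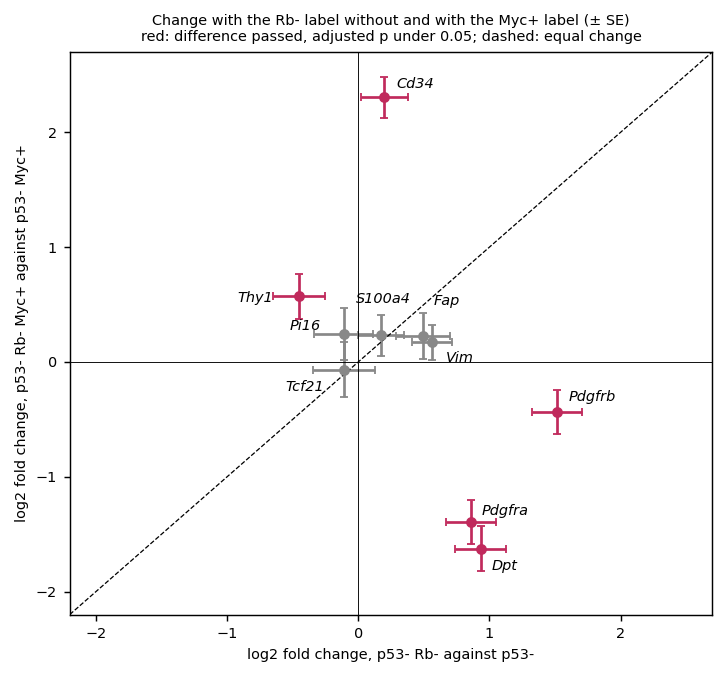
Log2 fold change with the Rb- label without the Myc+ label (horizontal axis, p53- Rb- against p53-) and with it (vertical axis, p53- Rb- Myc+ against p53- Myc+); bars are ± SE and the dashed line marks equal changes. The 5 red genes passed the test of the difference: Pdgfra, Pdgfrb and Dpt lie below the line, and Cd34 and Thy1 above it.

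Other genes that fibroblasts express are given next, from a list of 30 matrix, surface and transcription factor genes of which 29 were measured. In p53- against WT 2 rose and 11 fell, with a median change of -0.27, where 19.3% of all genes rose and 9.72% fell, and Mfap4, a microfibril-associated glycoprotein, fell by 1.87 ± 0.24 (adjusted p = 7.42e-06). In p53- Rb- against p53- 22 rose and 0 fell, against 9.36% and 10.4% of all genes, with a median of 1.08, and unadjusted p was under 0.05 for 24. Mfap4 rose by 3.10 ± 0.24 (adjusted p = 2.66e-08) and Cd248, the sialomucin endosialin of stromal cells, by 1.96 ± 0.16 (adjusted p = 5.71e-08). The sizes for Mfap4 depend on the constant added, since it read 17.5 to 32.9 on p53- arrays. In p53- Myc+ against p53- 18 rose and 3 fell, with a median of 1.22, against 13.1% and 20.2% of all genes. The transcription factor Meox2 rose by 3.38 ± 0.21 (adjusted p = 8.36e-12) and Pcolce, which helps to process procollagen, by 2.80 ± 0.19 (adjusted p = 5.74e-11), while Fn1, which encodes fibronectin, fell by 2.31 ± 0.14 (adjusted p = 1.26e-11).

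In p53- Rb- Myc+ against p53- Myc+ 1 of these 29 rose and 11 fell, with a median of -0.32, where 3.29% of all genes rose and 1.40% fell. The transcription factor Osr1 fell by 2.20 ± 0.18 (adjusted p = 9.15e-09) and Postn, which encodes the matrix protein periostin, fell by 2.06 ± 0.19 (adjusted p = 6.36e-08). Against p53- Rb- cells 10 rose and 14 fell (17.6% and 18.7% of all genes), with a median of -0.25, and Mfap5 fell by 4.19 ± 0.22 (adjusted p = 5.11e-13). The difference of both Rb comparisons passed above 0 for 1 and below 0 for 22 (8.78% and 4.86% of all genes), with a median of -1.33, and was -5.72 ± 0.33 for Mfap4 (adjusted p = 2.56e-10). The summed intensity of the 29 was 14918 to 16095 in WT, 13515 to 14597 in p53-, 22111 to 28480.1 in p53- Rb-, 20207 to 21669 in p53- Myc+ and 16031 to 17903 in p53- Rb- Myc+ arrays. Dcn, the proteoglycan decorin, had a mean of 1231 ± 47.5 (SD, n = 3) in WT arrays and between 574 and 1502 in the 4 altered groups, so transcripts of fibroblast matrix were present in the WT arrays of these labelled epithelial cells too.

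**Figure D4:**
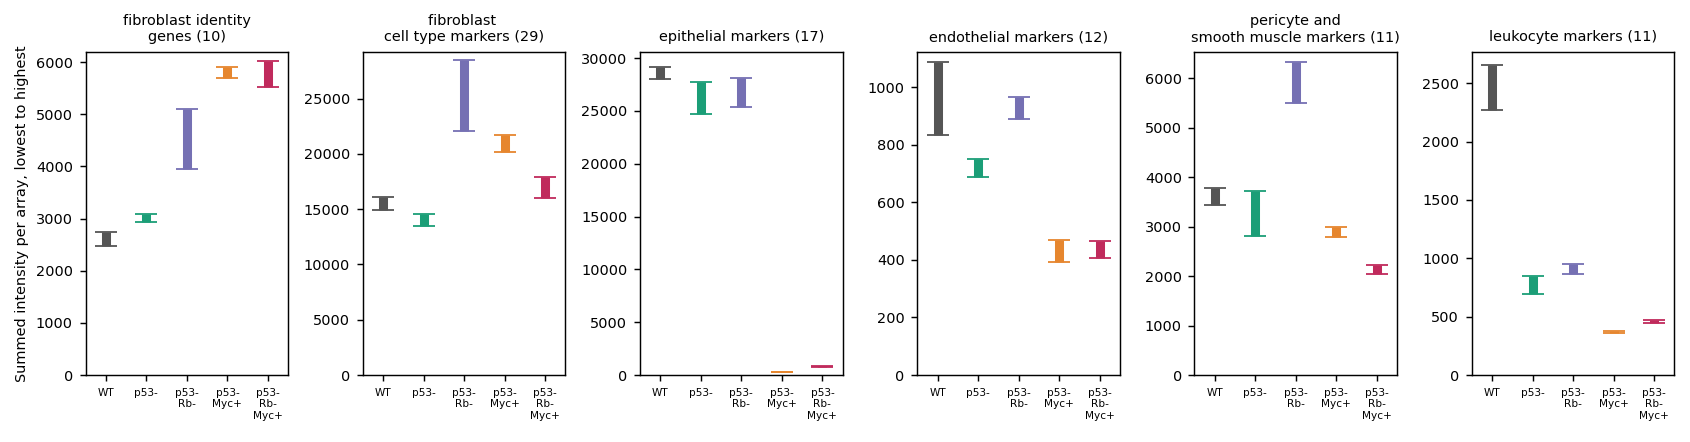
Summed probe set intensity per array (linear, arbitrary units, vertical axes from 0) of the 10 genes and of 5 marker lists, with the number of genes measured in parentheses; bars run from the lowest to the highest of the 3 arrays of a group. The epithelial sum is at 820.0 or lower in the groups labelled Myc+, where the sum of the 10 genes is highest (5519 to 6017). Vim and S100a4 make up most of that sum. Without the Rb- label their means there are 2740 and 1329, and with it 3083 and 1560. The sum of the 29 other fibroblast genes is instead highest on p53- Rb- arrays (22111 to 28480.1).

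The other side of the receptors was read from 18 genes of platelet-derived growth factor signalling. In p53- Myc+ against p53- 1 rose and 10 fell, where 13.1% of all genes rose and 20.2% fell. The ligand gene Pdgfb fell by 3.16 ± 0.25 (adjusted p = 5.1e-10), Pdgfa fell by 2.74 ± 0.18 (adjusted p = 2.23e-11) and Pdgfd fell by 1.58 ± 0.20 (adjusted p = 1.26e-06), in the comparison in which both receptors rose. In p53- Rb- Myc+ against p53- Rb- 1 rose and 12 fell (17.6% and 18.7% of all genes), with Pdgfb at -3.35 ± 0.25 (adjusted p = 1.93e-10), Pdgfa at -2.04 ± 0.18 (adjusted p = 3.55e-09) and Pdgfc at -1.25 ± 0.16 (adjusted p = 9.18e-07). Pdgfrl, a receptor-like gene without a kinase domain, rose by 1.67 ± 0.23 in p53- Rb- against p53- (adjusted p = 3.58e-05), in a list where 5 rose and 3 fell (9.36% and 10.4% of all genes). Those 8 calls were 5 with 1 added in place of 16, and 4 without p53- replicate 1, without p53- replicate 3 or without p53- Rb- replicate 3.

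Of the 6 transcription factors of the epithelial-mesenchymal transition, 4 rose and 0 fell in p53- Myc+ against p53- (13.1% and 20.2% of all genes), and unadjusted p was under 0.05 for 4. Twist2 rose by 2.58 ± 0.21 (adjusted p = 1.02e-09), Zeb2 by 1.24 ± 0.18 (adjusted p = 6.73e-06), Twist1 by 1.22 ± 0.17 (adjusted p = 5.31e-06) and Snai1 by 1.21 ± 0.21 (adjusted p = 6.28e-05). In p53- Rb- Myc+ against p53- Rb- 5 rose and 0 fell (17.6% and 18.7% of all genes), with unadjusted p under 0.05 for 5. In p53- against WT 4 of the 6 rose and 1 fell (19.3% and 9.72% of all genes). The gene that fell there was Twist2, by 0.89 ± 0.21 (adjusted p = 0.00314). In p53- Rb- against p53- 2 rose and 1 fell (9.36% and 10.4% of all genes). Twist1 and Twist2 are also among the 29 fibroblast genes. In p53- Myc+ against p53-, where Vim and S100a4 rose, 11 of 20 other S100, intermediate filament and contractile genes fell and 2 rose, and in p53- against WT 9 fell and 1 rose. In p53- Myc+ against p53- S100a16 fell by 4.44 ± 0.15 (adjusted p = 3.65e-16) and Nes, the intermediate filament nestin, by 3.24 ± 0.16 (adjusted p = 2.72e-13). Nes had risen by 1.30 ± 0.16 in p53- against WT (adjusted p = 7.93e-06).

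The genes with the most similar pattern were found by the root mean square difference of the 5 group means (log2 scale, each gene centred on its own mean), for the 8 genes with a group mean at or above the median of all values. These distances describe 5 points and carry no test. Nearest to Pdgfra were Lifr (0.21) and Cacng7 (0.22), and to Dpt Dpep1 (0.37) and Cacng7 (0.38). Pdgfrb was nearest to Lrrc61 (0.08) and Aebp1 (0.15), Thy1 to Nox4 (0.16) and Cgnl1 (0.27), and Cd34 to Gm807 (0.09) and Runx3 (0.18). S100a4 was nearest to Mkx (0.088) and Mcc (0.090), and Vim to Zmynd8 (0.06) and Cdc20 (0.06). Runx3 followed Cd34 with means of 9.24 to 15.5 in 4 groups and 98.8 in p53- Rb- Myc+ arrays. Tcf21, whose own pattern was nearly flat (0.15 around its mean), lay nearest to Lhfpl5 (0.020) and Heatr4 (0.022).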

How the data were processed

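The authors deposited 1 linear intensity for each probe set and array. The submitters' processing notes name Affymetrix Expression Console 1.1; how probes were summarised, scaled and corrected for background is not stated there. Of 35556 probe sets, 21789 had 1 gene symbol, 1621 several and 12146 none listed in the platform annotation. For each of 19938 genes the brightest probe set (mean of 15 arrays) was used. Symbols of 21698 probe sets were checked through Entrez numbers against the GRCm38.p6 gene table, and 0 changed. 1 limma 3.58.1 fit in R 4.3.3 (lmFit, eBayes) of 5 group means on log2(intensity + 16) gave all tests, 2-sided, with Benjamini-Hochberg adjustment over all genes (10 residual and 11.8 prior degrees of freedom). The script was tested on simulated data. The number of arrays, 3 a group, limits the precision.

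The 10 genes, the marker lists and the tests were chosen with earlier results of these data known. Genes named from a list are up to 4 with the smallest p in a comparison, besides Epcam, Dcn and the endothelial genes given with Cd34, which were chosen after their values were seen. Same-number arrays deviated together in p53- Rb- Myc+ against p53- Myc+ (r = 0.10, 0.19 and 0.38), so the numbers were taken to pair them there, from the values and not the labels; this held in none of the other 4 comparisons. Alternatives covered the added constant, scaling, low genes, probe sets, array weights, the prior, a replicate block, the groups fitted and each array left out.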

Additional observations from a re-analysis of the deposited data

Results flagged for a closer look

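Of the 10 genes, 5 changed differently with the Rb- label depending on the Myc+ label, by the test of the difference itself in limma, which 13.6% of all genes passed, 8.78% above and 4.86% below 0 (p53- Rb- Myc+ minus p53- Myc+, less p53- Rb- minus p53-). The differences were -2.26 for Pdgfra, -1.95 for Pdgfrb, -2.56 for Dpt, 1.02 for Thy1 and 2.11 for Cd34 on the log2 scale. Pdgfra and Dpt rose in one and fell in the other Rb comparison, Pdgfrb rose in the first only, Cd34 rose in the second only, and Thy1 passed in neither alone. The summed intensity of 17 epithelial markers was 239 to 820.0 on the arrays of the second comparison, most of it Krt19 with the Rb- label, and 24726 to 28112 on those of the first, and its part in these differences was not tested.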

How the results depend on the processing

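Each result was refitted under 25 alternatives (24 for Fap, Pi16 and Tcf21, which were too low for the filter on low genes). The counts of the 10 genes that passed stayed within 1.5 times in all of them: 4 to 5 in p53- against WT, 3 to 5 in p53- Rb- against p53-, 6 to 6 in p53- Myc+ against p53-, 3 to 4 and 5 to 9 in p53- Rb- Myc+ against p53- Myc+ and against p53- Rb-, and 4 to 5 for the difference. With the replicate block the calls among the 10 genes numbered 5, 4, 6, 3, 6 and 5 in that order, as without it. Over all genes they numbered 5902, 4011, 6698, 931, 7348 and 2780. The block changed no member's call. It is shared by all groups, so it cannot show what pairing p53- Rb- Myc+ with p53- Myc+ arrays alone would give. Of 29 member results that passed, none reversed and 4 failed somewhere (S100a4, Vim, Fap and Thy1, given above). For the 10 genes, the mean of all probe sets, the trended prior and the replicate block kept each estimate. So did fitting only the compared groups or leaving out an array of another group. These alternatives could not reverse a sign. Dpt moved to -0.54 in p53- against WT and 0.54 in p53- Rb- against p53- with 64 added, Thy1 in p53- Rb- against p53- passed with 64 added (-0.39, adjusted p = 0.0442) and array weights (-0.37, adjusted p = 0.0496), and S100a4 in p53- against WT did not pass with 1 added (adjusted p = 0.0746), array weights (-0.31, adjusted p = 0.154) or only the compared groups (adjusted p = 0.0889). Fap in p53- Rb- Myc+ against p53- Rb- was -0.29 with 64 added and -0.44 with array weights.

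All results that changed sign had not passed. With centred arrays Pi16 became -0.014 in p53- against WT and 0.12 in p53- Myc+ against p53-, and the difference -0.076 for S100a4 and -0.089 for Tcf21. Quantile normalization gave -0.025 for Fap and -0.13 for Pi16 in p53- against WT, 0.067 for Pi16 and 0.058 for Tcf21 in p53- Rb- against p53-, 0.21 for Pi16 in p53- Myc+ against p53- and -0.21 for Tcf21 in the difference. Array weights gave 0.0821 for Pdgfra in p53- against WT, -0.017 for S100a4 and 0.0077 for Tcf21 in p53- Rb- against p53-, 0.015 for Pi16 in p53- Myc+ against p53- and 0.015 for Tcf21 in p53- Rb- Myc+ against p53- Myc+. Leaving out 1 array at a time gave -0.12 to 0.17 for Pdgfra and -0.091 to 0.24 for Pi16 in p53- against WT, -0.27 to 0.064 for Pi16 and -0.31 to 0.11 for Tcf21 in p53- Rb- against p53-, and -0.30 to 0.15 for Pi16 and -0.0036 to 0.44 for Tcf21 in p53- Myc+ against p53-. It gave -0.21 to 0.15 for Tcf21 in p53- Rb- Myc+ against p53- Myc+, and -0.075 to 0.20 for S100a4 and -0.18 to 0.26 for Tcf21 in the difference. The cause was not tested.

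Over all genes, 5780 calls in p53- against WT became 3470 without p53- replicate 3. In p53- Rb- against p53-, 3950 became 8518 with array weights, 2483 without p53- replicate 1, 2130 without p53- replicate 3 and 2098 without p53- Rb- replicate 3. For the difference 2719 became 5404 with array weights, 1762 without p53- replicate 3 and 1795 without p53- Rb- Myc+ replicate 2. Among the marker lists, the 5 pericyte and smooth muscle calls in p53- Rb- against p53- became 3 and the 7 leukocyte calls in p53- against WT became 4 with the filter on low genes, which tests fewer genes, and the 0 epithelial calls in p53- Rb- against p53- became 2 with 64 added, 4 with array weights and 1 without p53- replicate 2. In p53- against WT the 3 pericyte and smooth muscle calls became 0 with that filter, and the 5 endothelial calls became 2 with it and 3 with 1 added or only the compared groups. The shares of all genes printed beside these comparisons move with them. Fap, Pi16, Tcf21 and part of Thy1 lie low on the intensity scale, and the files used carry no detection call, so their changes are the least certain.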
